A study of Bos taurus with 12 samples.

Results

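Gene expression in the biceps brachii of bulls given dexamethasone, with or without clenbuterol, was compared with that of untreated bulls by taking both treatments as 1 treated group. The 8 arrays labelled with either treatment formed that group, against 4 untreated controls, and together they are all 12 arrays of the series. The dexamethasone group (4 arrays) received 0.75 mg of the drug per head in feed for 42 days. The dexamethasone+clenbuterol group (4 arrays) received 0.66 mg of dexamethasone per head for 21 days and clenbuterol over 28 days. Each animal was given 2 mg of clenbuterol in the first week, 4 mg in the next and 6 mg thereafter, as a dose per head whose interval the labels do not state. The pooled regimens thus differed in clenbuterol and also in how much dexamethasone was given and for how long, and the contributions of these cannot be told apart. All animals were male, 18 to 20 months old; 24 were treated or kept as controls, 8 in each group, and the 12 arrayed were those whose RNA had the best quality. Each array is 1 animal's muscle, so that the errors below describe the spread between animals and between arrays together.

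Dexamethasone is a synthetic glucocorticoid. It binds the glucocorticoid receptor, which is held in the cytoplasm by heat shock protein chaperones, moves to the nucleus and turns genes up or down. In skeletal muscle glucocorticoids are known for promoting protein breakdown and the use of fat as fuel, and throughout the body for damping inflammation and the growth of connective tissue. Clenbuterol is a beta-agonist that raises cyclic AMP and is known for increasing muscle mass. A gene that moves to a similar degree under both regimens is the kind of gene that the pooled comparison was set to find.

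A level here means the log2 signal of a gene after subtracting the array's 75th percentile, so that 0 is the signal below which 75% of an array's spots lie. A level can be compared between arrays for 1 gene but not between genes. Of 13668 genes tested, 11192 had a symbol. Of the 19 skeletal muscle fibre markers measured, 18 were well above background on all 12 arrays, and their median log2 change was -0.003, with 0 of 19 at an unadjusted p under 0.05. Dexamethasone replicate 1 stood apart in these markers. With each gene centred on its mean, its list mean was -0.70, against -0.05 to 0.06 in controls. For fast fibre contractile genes it was -1.23 (controls -0.22 to 0.10) and for embryonic and regenerating fibre genes 2.09 (controls -0.75 to -0.03). Without that array the pooled changes were -2.58 for LIPG, -1.96 for SLC43A2 and -1.76 for B3GNT8, all with a limma adjusted p under 0.05, and -2.05 for EE890884 (limma adjusted p = 0.0737). The list medians without it were 0.54 for heat shock proteins, -0.72 for glucocorticoid receptor targets and -0.81 for fibroblast markers. The arrays were scanned on 4 days. Scan day 2 held 7 arrays, 6 treated and 1 control, with a negative-control signal of 67.3 to 92.5 and 53.2% to 65.0% of spots well above background. The other days held 2 treated arrays and 3 controls, with a negative-control signal of 30.8 to 43.7 and 66.4% to 68.7% of spots above background. Of the other days, day 1 held the 3 controls, day 3 dexamethasone replicate 4 and day 4 combination replicate 4. Treatment and scan day are therefore partly tied, and within the other days they cannot be told apart. By the headers, treatment and slide are tied as well. Control replicates 1 to 3 had a slide to themselves, and control replicate 4 shared one with dexamethasone replicates 1 to 3. No combination array shared a slide with a control, on scan day 2 or on the other days. Slide and the combination's change against control therefore cannot be told apart. For the 4 genes that passed the pooled test, and for some other genes and lists, the change is also given within scan day 2, which has 1 control, and within the other days. The scan block used below sets day 2 against the other days together and does not separate those.

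In the pooled comparison 4 genes passed a limma test at an adjusted p under 0.05, and all of them fell: LIPG, SLC43A2, B3GNT8 and a transcript known on the array only by the expressed sequence tag EE890884. They were 3.16-fold to 6.72-fold lower in the treated bulls. These 4 are 0.0293% of the genes tested, and 0 genes passed in the direction of a rise. Without adjustment, 1658 genes (12.1%) had a p under 0.05, of which 764 were lower (5.59%) and 894 higher (6.54%). All 4 shifted alike, meaning that each treatment's own change had the sign of the pooled change and the smaller was at least 0.5 of the larger. By the same definition 34.9% of all genes tested shifted alike. Shifting alike among the genes that passed is partly set by the selection. The pooled test counts a difference between the treatments as spread, and both changes share the 4 controls. In none of the 4 did a treated array reach a control array.

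LIPG encodes endothelial lipase, an enzyme that cleaves phospholipids of circulating lipoproteins. Its level was -2.73, -2.67, -3.31 and -2.81 in the 4 controls. In the dexamethasone arrays it was -6.79, -6.20, -5.76 and -5.36, and in the combination arrays -5.00, -5.42, -5.86 and -4.66. Every treated array lay below every control by more than the whole spread of the controls. The pooled log2 change was -2.75 ± 0.33 (SE), a 6.72-fold lower level, with a limma adjusted p of 0.0184. LIPG was well above background on 4 of 4 controls but on 1 of 4 arrays in each treatment, so that the size of its fall rests on treated signals near background. A second LIPG probe had a log2 change of -2.48. Within scan day 2 the change was -3.02, within the other days -2.10, and with scan day 2 against the other days as a block it was -2.49 (limma adjusted p = 0.101).

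SLC43A2 encodes a carrier of large neutral amino acids such as leucine and phenylalanine; its probe was named through the human gene it matches. Controls had levels of 2.54, 2.75, 1.60 and 2.59. Dexamethasone arrays had 0.81, 0.59, 0.02 and 0.25, and combination arrays 0.99, 0.63, 0.49 and -0.09. Control replicate 3 was the lowest control and still stood above the highest treated array. SLC43A2 was well above background on all 12 arrays and fell by a log2 change of -1.91 ± 0.25, or 3.76-fold (limma adjusted p = 0.0208). The fall was -1.95 ± 0.29 with dexamethasone and -1.87 ± 0.29 with the combination, and the difference between the treatments was 0.09 (95% interval -0.55 to 0.73). Its change was -2.00 within scan day 2 and -2.22 within the other days. SLC43A2 was the 1 gene that still passed with the scan block, at -2.13 (limma adjusted p = 0.0407).

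B3GNT8 encodes a Golgi enzyme that extends sugar chains on glycoproteins. Its level was -3.79, -3.50, -3.63 and -4.42 in controls, -4.83, -5.25, -5.73 and -5.24 with dexamethasone and -5.61, -5.50, -6.14 and -5.69 with the combination. The groups did not overlap, but control replicate 4, scanned on day 2, was the lowest control. B3GNT8 fell by -1.66 ± 0.23, or 3.16-fold (limma adjusted p = 0.0325). It was well above background on 3 of 4 controls, 2 of 4 dexamethasone arrays and 0 of 4 combination arrays, so the combination has only a bound, at least 2.41-fold lower than the controls. The lowest signal well above background on each array stood in for dimmer ones in that bound, and the fitted changes were -1.42 with dexamethasone and -1.90 with the combination. Within scan day 2 the change was -1.09 and within the other days -1.82, and with the scan block the adjusted p was 0.18.

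EE890884 had levels of -1.32, -0.67, -1.84 and -1.49 in controls, -3.71, -4.10, -3.06 and -3.86 with dexamethasone and -2.32, -3.60, -3.38 and -3.35 with the combination. It was well above background on all 12 arrays. The highest treated array, combination replicate 1, was below the lowest control. Its pooled log2 change was -2.09 ± 0.30, or 4.27-fold lower (limma adjusted p = 0.0325), and -1.88 and -2.32 within scan day 2 and the other days. No gene symbol was matched to this tag.

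**Figure D1:**
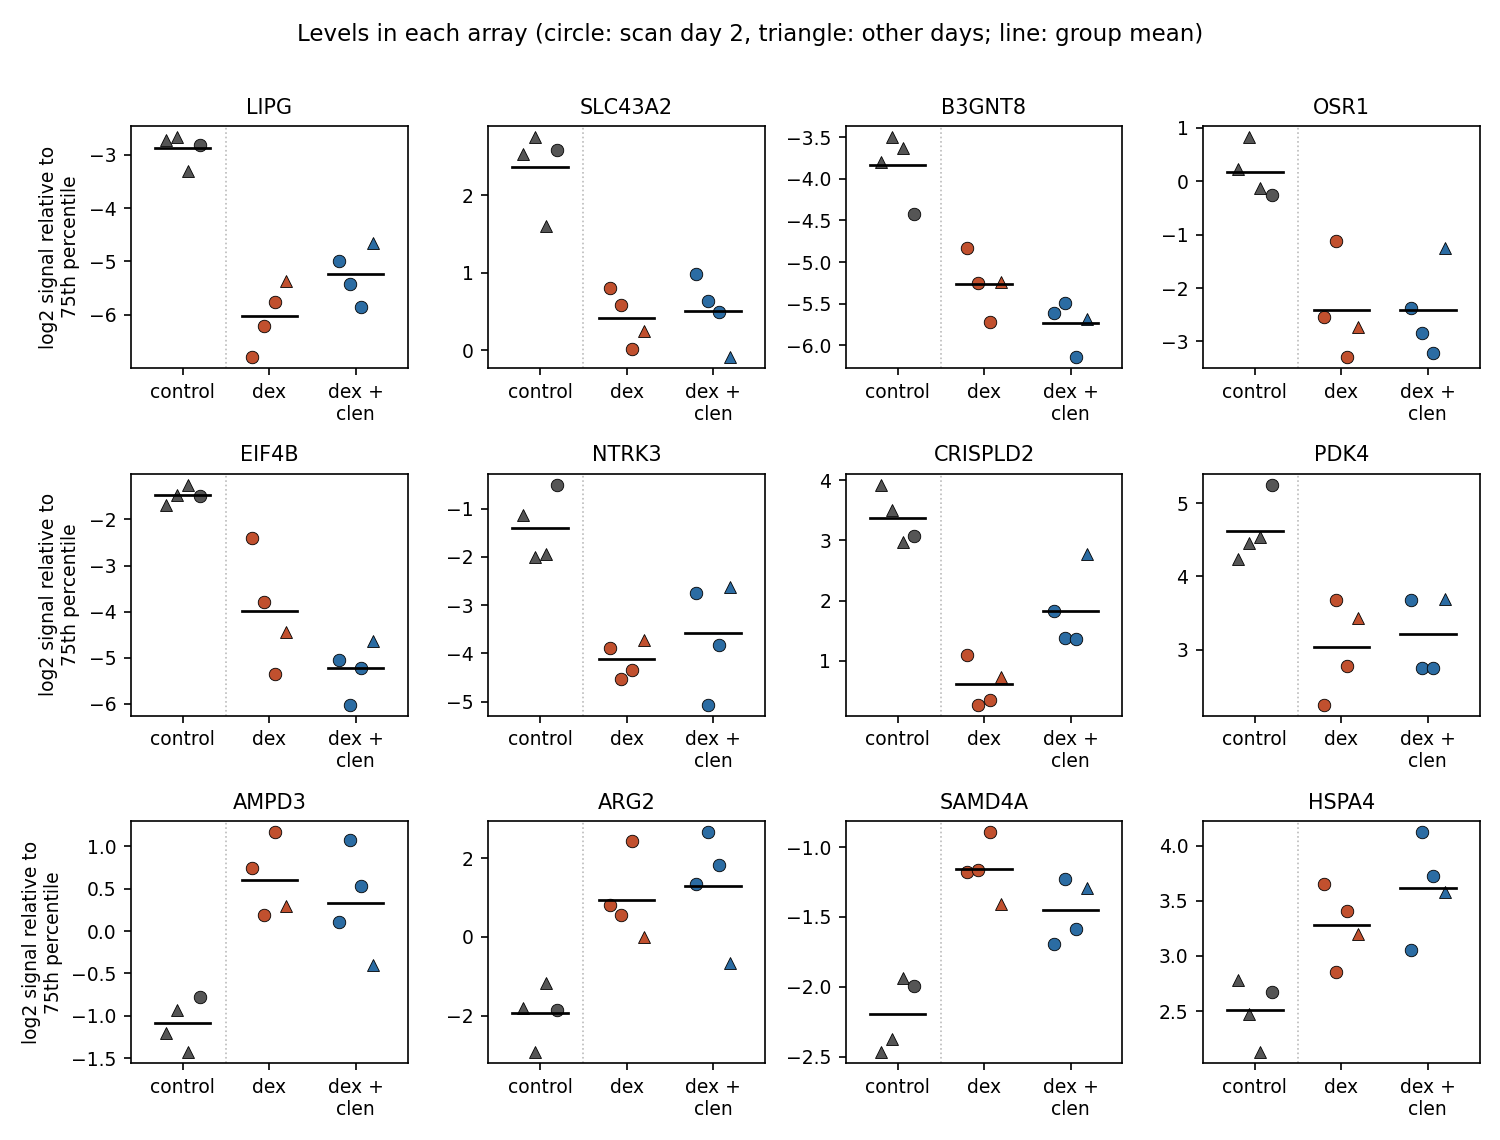
Level of 12 genes in each array, as log2 signal relative to the array's 75th percentile, in 4 control, 4 dexamethasone (dex) and 4 dexamethasone+clenbuterol (dex + clen) arrays; circles are arrays of scan day 2, triangles those of the other days, and lines the group means. LIPG, SLC43A2 and B3GNT8 passed the pooled test and the other 9 genes did not; in all 12 panels the treated and control arrays do not overlap.

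The pooled test counts a difference between the treatments as spread among the 8 treated arrays. When the spread was instead taken within the 3 labelled groups, and the mean of both treatments' changes was tested, 33 genes passed (0.241% of those tested), 29 lower (0.212%) and 4 higher (0.0293%). They included the 4 genes above. Of the 33, 23 shifted alike, 20 lower and 3 higher, and 10 did not, while 34.9% of all genes shifted alike. No overlap between treated and control arrays was found for 26 of the 33, against 1.46% of all genes. Both counts are partly set by the selection. Well above background on all 12 arrays were 21 of the 33 and 10692 of all 13668 genes. The test for dexamethasone alone, which shares the 4 controls, called 85 genes (0.622%) and took in 27 of the 33, that for the combination alone called 6 (0.0439%) and took in 5, and 4 of the 33 passed in neither. The calls rest on few controls: without control replicate 1 or control replicate 2, 0 genes passed in this limma fit, with 1103 and 1231 at an unadjusted p under 0.05. With the scan block 2 passed. The genes below are described from this fit, and their adjusted p is marked as that with the spread within 3 groups. Apart from those with the smallest p in the pooled test, they were picked for description after their values were seen.

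OSR1, a zinc finger transcription factor found in muscle connective tissue cells, had levels of 0.23, 0.83, -0.12 and -0.25 in controls. Its levels were -2.54, -1.12, -3.29 and -2.73 with dexamethasone and -2.36, -2.84, -3.21 and -1.25 with the combination. All treated arrays were below all controls, with dexamethasone replicate 2 and combination replicate 4 closest to them. The change was -2.59 in each treatment, the difference between the treatments was 0.00 (95% interval -1.06 to 1.06), and OSR1 was 6.02-fold lower (limma adjusted p = 0.0354 with the spread within 3 groups, 0.0533 with the treated arrays as 1 group). Its change was -2.31 within scan day 2 and -2.30 within the other days.

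EIF4B, an initiation factor that helps unwind messenger RNA for translation, had levels of -1.68, -1.47, -1.25 and -1.49 in controls. It had -2.40, -3.79, -5.36 and -4.44 with dexamethasone and -5.05, -6.02, -5.22 and -4.63 with the combination. The controls lay within a narrow band and the dexamethasone arrays were widely spread. The log2 change of EIF4B was -3.14, an 8.82-fold fall (limma adjusted p = 0.0148 with the spread within 3 groups). It was well above background on 3 of 4 dexamethasone arrays and 1 of 4 combination arrays, and 1 probe measured it. Of the 24 translation initiation and elongation factors measured, EIF4B was the 1 that passed, and their median log2 change was 0.04, against 0.03 over all genes.

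SALL2, a zinc finger transcription factor, had levels of -3.70 to -4.67 in controls and -4.98 to -5.62 in treated arrays (lowest -5.62, median -5.28). It fell by -1.25 with dexamethasone and by -0.99 with the combination (limma adjusted p = 0.0297 with the spread within 3 groups). It was well above background on 4 controls and 3 of 8 treated arrays, and the change was -0.63 within scan day 2 and -1.33 within the other days. SAMD4A, an RNA-binding repressor of translation, was 1 of the 3 genes that rose alike. Its levels were -2.47, -2.37, -1.94 and -1.99 in controls, with a treated range of -1.70 to -0.89 and a median of -1.26. The rise was 1.85-fold, with 1.03 for dexamethasone and 0.74 for the combination (limma adjusted p = 0.0491 with the spread within 3 groups).

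NTRK3, the receptor of neurotrophin-3, had control levels of -1.14, -2.00, -1.94 and -0.51 and treated levels from -5.06 to -2.62 with a median of -3.86. It was 5.46-fold lower (-2.73 with dexamethasone, -2.17 with the combination; limma adjusted p = 0.0491 with the spread within 3 groups), and a second probe had a log2 change of -1.64. Within scan day 2 NTRK3 had a change of -3.57 and within the other days -1.47. FZD1, a Wnt receptor, fell by a log2 change of -1.09 (-1.42 and -0.76 in the 2 treatments; limma adjusted p = 0.0447 with the spread within 3 groups). Its treated arrays reached -3.91, above the lowest control at -3.94, so FZD1 overlapped. FZD1 was well above background on 2 of 4 dexamethasone and 3 of 4 combination arrays. LEFTY2, a secreted antagonist of nodal signalling, rose by 0.93 (0.82 and 1.03; limma adjusted p = 0.0494 with the spread within 3 groups), but it was well above background on 1 of 4 controls and 5 of 8 treated arrays.

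CRISPLD2, a secreted protein and a known glucocorticoid receptor target, had levels of 3.92, 3.49, 2.96 and 3.07 in controls. Dexamethasone arrays had 1.09, 0.27, 0.35 and 0.72, and combination arrays 1.83, 1.37, 1.37 and 2.77. Combination replicate 4 came closest to the lowest control and the dexamethasone arrays were furthest away. The change was -2.75 with dexamethasone and -1.53 with the combination, and the difference between them, 1.22, had a 95% interval of 0.51 to 1.94 but an adjusted p of 0.201 in limma over all genes. CRISPLD2 was 4.41-fold lower (limma adjusted p = 0.0134 with the spread within 3 groups). A second CRISPLD2 probe, well above background on all 12 arrays, had a log2 change of -0.12, so the 2 probes disagreed.

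AMPD3, an AMP deaminase that turns AMP into IMP, had levels of -1.21, -0.93, -1.43 and -0.78 in controls. It had 0.74, 0.19, 1.17 and 0.29 with dexamethasone and 0.11, 1.07, 0.54 and -0.40 with the combination. Each treated array was above each control. AMPD3 rose 2.93-fold, by 1.68 with dexamethasone and 1.42 with the combination (limma adjusted p = 0.0447 with the spread within 3 groups), and by 1.41 within scan day 2 and 1.13 within the other days. Of the 18 measured genes of the purine nucleotide cycle, AMPD3 was the 1 that passed, and the list's median change was 0.02.

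GPCPD1, which splits glycerophosphocholine, had levels of 5.46, 5.10, 5.31 and 5.32 in controls and 3.69 to 4.70 in treated arrays, with a median of 3.96. Among the treated arrays those scanned on day 2 were the lower ones: dexamethasone replicate 4 and combination replicate 4, scanned on other days, had 4.67 and 4.70. GPCPD1 fell by -1.17 with dexamethasone and -1.26 with the combination (limma adjusted p = 0.0447 with the spread within 3 groups), by -1.44 within scan day 2 and by -0.60 within the other days. SULT1A1, a sulphotransferase of phenolic compounds, had control levels between 2.58 and 2.71 and treated levels between 0.87 and 2.12. It fell by -1.31 with dexamethasone and -0.79 with the combination (limma adjusted p = 0.0494 with the spread within 3 groups). The other 3 named genes that moved alike were lower: ANKRD13A, a ubiquitin-binding ankyrin protein (-1.01 and -1.13), KIAA0644 (-1.24 and -1.10) and C21H14orf132 (-1.55 and -0.95).

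**Figure D2:**
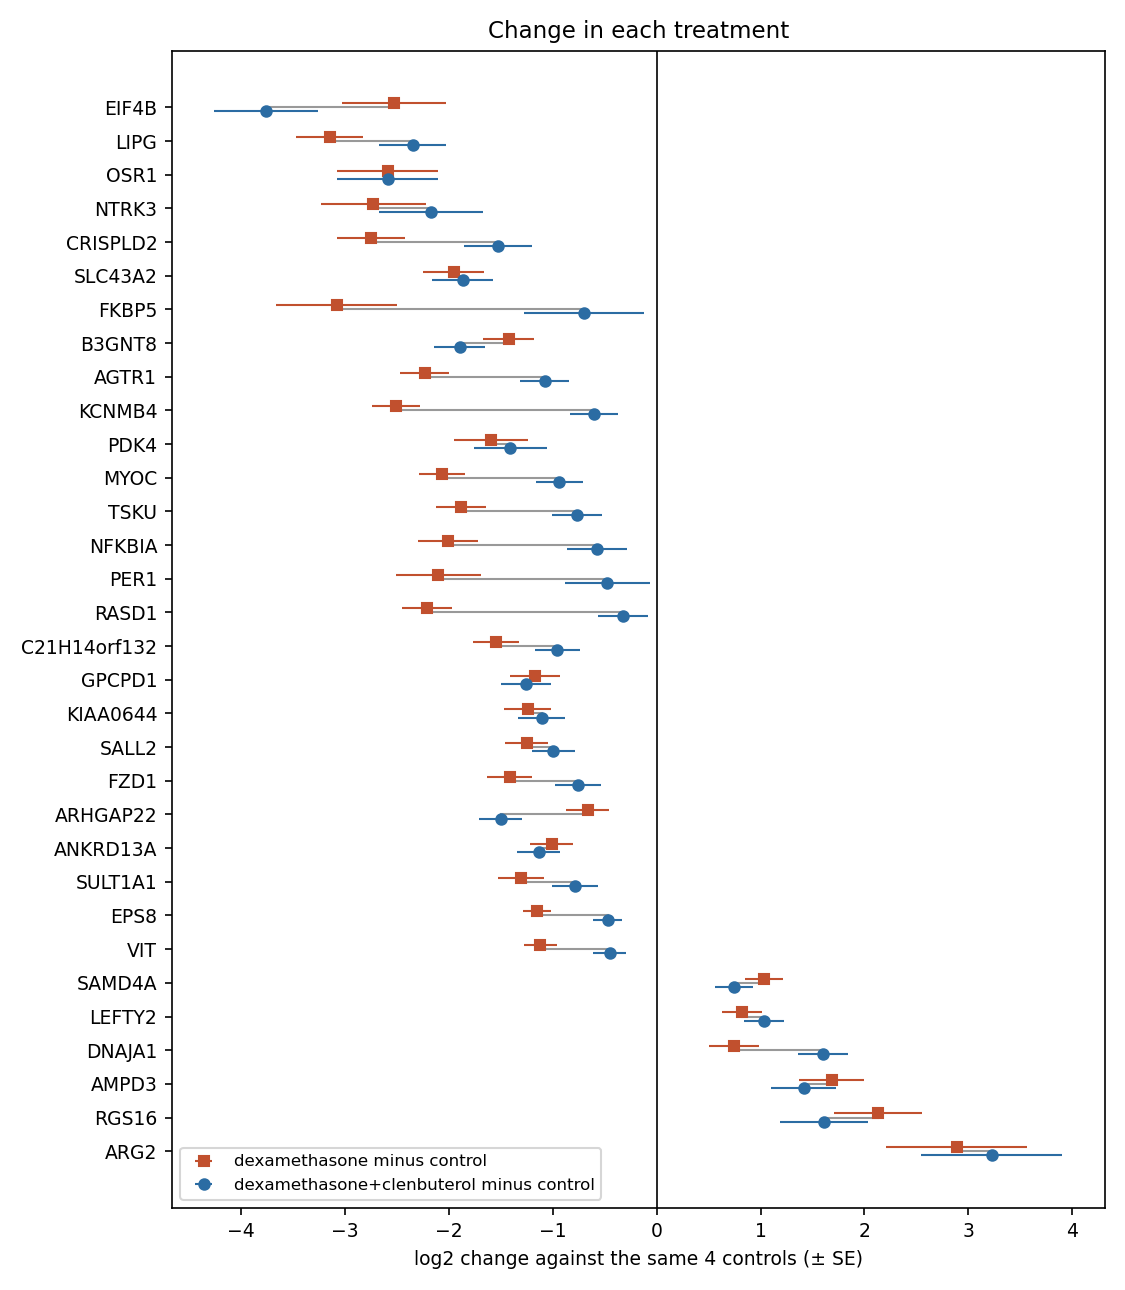
Log2 change against the same 4 controls with its SE for 32 genes, squares for dexamethasone and circles for dexamethasone+clenbuterol, with a grey line joining the pair. OSR1, SLC43A2, GPCPD1 and ANKRD13A have nearly equal changes, while for RASD1 (-2.21 and -0.33) and KCNMB4 (-2.51 and -0.60) dexamethasone's change is several times that of the combination.

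Of the 10 genes that passed with the spread within 3 groups but did not shift alike, 9 had a symbol. For RASD1, a Ras-like protein named for its induction by dexamethasone, the changes were -2.21 ± 0.24 and -0.33 ± 0.24. The difference of 1.89 had an adjusted p of 0.0319 in limma over all genes. KCNMB4, a regulatory subunit of a calcium-activated potassium channel, had -2.51 and -0.60, and its difference of 1.91 also had an adjusted p of 0.0319. These were the 2 genes (0.0146% of those tested) for which the combination differed from dexamethasone, while 1507 (11%) had an unadjusted p under 0.05 in that test. In limma neither gene passed it with the 2-level scan block, scan day or slide as a block. By the headers replicates 1 to 3 of each treatment shared a slide, and no slide held arrays of both treatments. Slide and the difference between the treatments therefore cannot be told apart. KCNMB4 was well above background on 1 of 4 dexamethasone arrays, and its second probe had a pooled change of -0.68.

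The remaining genes of unequal size did not pass the test of a difference. AGTR1, the main angiotensin II receptor, had control levels of -1.03, -1.19, -1.42 and -1.65, dexamethasone levels from -4.04 to -3.29 and combination levels from -2.94 to -2.06. The groups formed 3 separate bands, with changes of -2.23 and -1.08 and a difference of 1.16 (95% interval 0.64 to 1.68; limma adjusted p = 0.147). MYOC, a secreted glycoprotein, behaved likewise in size, with -2.07 and -0.94. EPS8, a regulator of actin, had -1.15 and -0.47. TSKU, a small leucine-rich proteoglycan, had -1.88 and -0.77, and VIT, a matrix protein, -1.12 and -0.45. ARHGAP22, which inactivates Rac, went the other way in size, with -0.66 and -1.50, and so did DNAJA1, a co-chaperone, with 0.74 and 1.60.

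Complete separation of the 8 treated from the 4 control arrays was found for 199 genes (1.46% of those tested), 109 lower (0.797%) and 90 higher (0.658%). Of these, 180 shifted alike, 97 lower and 83 higher, while 34.9% of all genes tested did so. Complete separation forces the same sign in both treatments, so this count is partly set by the selection. The examples that follow were chosen after their values were seen, and apart from the genes named above they did not pass the pooled test. CCL24, a chemokine that attracts eosinophils, had levels of -2.33, -1.76, -1.95 and -2.76 in controls and -6.59 to -3.88 in treated arrays. Its change was -2.64 with dexamethasone and -2.65 with the combination (limma adjusted p = 0.0804). CCL24 was well above background on 2 of 4 dexamethasone and 3 of 4 combination arrays, so these sizes rest partly on signals near background. CD163, a haemoglobin scavenger receptor of macrophages, had control levels from 0.00 to 0.90 and treated levels from -3.55 to -0.25. Its changes were -2.73 and -2.01 (limma adjusted p = 0.141). C1QA, a complement subunit, had changes of -2.22 and -1.33, and LYVE1, a hyaluronan receptor of lymphatic vessels and macrophages, -2.84 and -1.47.

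Among other separated genes with lower levels, PDGFRA, a growth factor receptor of fibroblasts and their progenitors, had control levels of -0.02, 0.18, 0.25 and -0.28. Its treated levels ran from -1.82 to -0.47, with changes of -1.18 and -1.16 (limma adjusted p = 0.106), and a second probe had -1.24. GLI3, a transcription factor of hedgehog signalling, had -1.44 and -1.24, BMP6, a bone morphogenetic protein, -1.21 and -1.18, and GAS1, a membrane protein that binds hedgehog ligands, -1.15 and -0.83. HSD11B1, the enzyme that regenerates active glucocorticoid from its inactive form, had control levels of -3.19, -3.38, -2.71 and -3.23 and treated levels from -4.31 to -3.53. Its changes were -0.80 and -0.57 (limma adjusted p = 0.186).

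On the higher side the widest separation by size was that of ARG2, the mitochondrial arginase. Its levels were -1.80, -2.93, -1.18 and -1.87 in controls, 0.82, 0.55, 2.42 and -0.01 with dexamethasone and 1.33, 2.65, 1.81 and -0.67 with the combination. The treated arrays spread over more than 3 log2 units, and those scanned on the other days were the lowest in each treatment. ARG2 had a change of 3.06 ± 0.57, or 8.33-fold (limma adjusted p = 0.0804), 3.47 within scan day 2 and 1.63 within the other days. RGS16, a regulator that shortens G protein signals, had changes of 2.13 and 1.61 (limma adjusted p = 0.106) but was well above background on 1 of 4 controls. SREBF2, the transcription factor of cholesterol synthesis, had 0.75 and 0.73, the insulin receptor INSR 0.90 and 0.63, and NFKB2, a subunit of NF-kappa-B, 0.80 and 0.79.

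No gene list was tested as a set, and counts and medians are to be read beside those of all 13668 genes. The median pooled change of all genes was 0.03, with 7457 of them above 0 and 6211 (45.4%) below. Of the 771 memberships of measured genes in the 39 lists, 2 passed the pooled test: LIPG among lipases and SLC43A2 among amino acid transporters. Apart from these 2, the lists therefore describe levels that did not pass gene by gene in the pooled test. With the spread within 3 groups, 2 glucocorticoid receptor targets, 1 heat shock co-chaperone and 1 fibroblast marker also passed, as did EIF4B and AMPD3.

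All 33 measured cytosolic heat shock proteins and co-chaperones had a pooled change above 0, with a median of 0.56. The median was 0.39 with dexamethasone and 0.69 with the combination. In the direction of a rise, 22 of the 33 (66.7%) had an unadjusted p under 0.05, against 6.54% of all genes, and 0 passed the adjusted threshold in the pooled limma fit. Those that shifted alike were 20 (60.6%), against 34.9% of all genes. HSPA4, a member of the HSP110 family, had levels of 2.78, 2.47, 2.13 and 2.67 in controls. It had 3.65, 2.86, 3.40 and 3.20 with dexamethasone and 3.05, 4.12, 3.73 and 3.58 with the combination. Its groups did not overlap and its changes were 0.76 and 1.11 (limma adjusted p = 0.153). HSPB6, a small heat shock protein of muscle, had 0.68 and 0.83 and also did not overlap. In the whole list 5 of 33 were separated and higher, against 0.658% of all genes. HSPA1A, the inducible HSP70, had levels of 6.15, 6.17, 6.07 and 7.15 in controls and 6.63 to 8.68 in treated arrays. Control replicate 4 stood apart from the other controls, so HSPA1A overlapped, with a change of 1.45 ± 0.35 (limma adjusted p = 0.156). A further HSPA1A probe, well above background on all 12 arrays, had a change of 1.91. Per array, the heat shock list had a mean of -0.53 to -0.30 in controls, -0.23 to 0.36 with dexamethasone and 0.08 to 0.62 with the combination, each gene centred on its own mean. That mean differed by 0.56 within scan day 2 and by 0.58 within the other days.

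Genes of endoplasmic reticulum stress, which code for chaperones and enzymes of the secretory pathway, had a median change of 0.40, with 21 of 23 above 0 and 10 (43.5%) higher at an unadjusted p under 0.05, against 6.54% of all genes. No member passed the adjusted threshold. HSPA5, the main chaperone of that compartment, had levels of 3.61, 3.66, 3.45 and 3.80 in controls and 3.82 to 5.81 in treated arrays. Dexamethasone replicates 2 and 4, at 3.82 and 3.86, were just above the highest control. Its change was 1.11 ± 0.34 (limma adjusted p = 0.23), 0.93 with dexamethasone and 1.29 with the combination. HSP90B1, its HSP90-class neighbour in that compartment, had 0.92 and 1.24, MANF, a secreted stress-response factor, 0.69 and 0.94, and CANX, a lectin chaperone, 0.43 and 0.54. These 4 were separated from the controls, out of 23 measured, while 0.658% of all genes were separated and higher. The list mean was -0.42 to -0.19 in controls, -0.25 to 0.24 with dexamethasone and -0.14 to 0.54 with the combination, so dexamethasone replicate 2 lay among the controls.

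The glucocorticoid receptor targets, a list of genes mostly described elsewhere as induced by glucocorticoids, lay mainly below 0 here: 23 of 28 measured, with a median of -0.71. The median was -0.85 with dexamethasone and -0.55 with the combination. Of the 28, 13 (46.4%) were lower at an unadjusted p under 0.05, against 5.59% of all genes. Those that shifted alike were 10 (35.7%), a share near the 34.9% of all genes. In the pooled limma fit 0 passed the adjusted threshold, and with the spread within 3 groups 2 did. PDK4, a kinase that restrains the use of glucose, had levels of 4.24, 4.46, 4.54 and 5.26 in controls. It had 2.25, 3.68, 2.77 and 3.43 with dexamethasone and 3.67, 2.75, 2.75 and 3.69 with the combination. Its groups did not overlap and its changes were -1.60 and -1.41 (limma adjusted p = 0.106), with -2.28 within scan day 2 and -0.86 within the other days. ZBTB16, a transcription factor, had -0.77 and -0.71, and GLUL, glutamine synthetase, -0.93 and -0.60 (limma adjusted p = 0.208). The list mean differed by -1.05 within scan day 2 and by -0.40 within the other days. In combination replicate 4, scanned on one of the other days, it was 0.29, within the control range of 0.25 to 0.76.

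Other targets had changes of unequal size, and for none of those named here did the limma test of a difference between the treatments pass. FKBP5, a co-chaperone that restrains the glucocorticoid receptor, had levels of 3.35, 2.99, 3.80 and 4.16 in controls. It had 0.55, 0.25, -0.01 and 1.19 with dexamethasone and 4.66, 1.26, 2.31 and 3.26 with the combination. Combination replicate 1 was above all controls, so the pooled groups overlapped, and the pooled change was -1.89 ± 0.75 (limma adjusted p = 0.337). FKBP5's changes were -3.08 and -0.70, with a difference of 2.38 (95% interval 1.12 to 3.64; limma adjusted p = 0.174). PER1, a clock gene, had -2.10 and -0.48 and NFKBIA, the inhibitor of NF-kappa-B, -2.01 and -0.58. TSC22D3, known as GILZ, had -0.28 with dexamethasone and was not well above background on any combination array. KLF15, a transcription factor, had -1.08 and -0.12. The receptor itself, NR3C1, had a pooled change of -0.35 (limma adjusted p = 0.551).

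Markers of muscle wasting and growth had small or uneven pooled changes. FBXO32 and TRIM63, the ubiquitin ligases known as atrogin-1 and MuRF1, had -0.04 ± 0.33 and -0.44 ± 0.40. MSTN, the growth inhibitor myostatin, had -0.67 ± 0.93, with -1.69 in dexamethasone and 0.36 in the combination. MSTN was dim, well above background on 1 of 4 dexamethasone and 3 of 4 combination arrays. IGF1 had 0.44 ± 0.49 (-0.25 and 1.14), and PPARGC1A, a coactivator of mitochondrial genes, -0.89 ± 0.80. Their adjusted p in the pooled limma fit ran from 0.695 for TRIM63 and PPARGC1A to 0.979 for FBXO32. Of 16 measured ubiquitin ligases of atrophy, 1 had an unadjusted p under 0.05, a share of 6.25% against 12.1% of all genes.

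Markers of fibroblasts and leukocytes lay mostly below 0 in the pooled comparison. In whole muscle, fewer cells of a type and less RNA per cell cannot be told apart. All 17 fibroblast markers had a pooled change below 0, with a median of -0.80 (-1.18 with dexamethasone, -0.40 with the combination). Of these, 8 (47.1%) had an unadjusted p under 0.05, against 5.59% of all genes in that direction. OSR1 and PDGFRA were among the 6 (35.3%) that shifted alike, a share near the 34.9% of all genes. Collagens were less even: COL3A1, COL1A1 and COL1A2, the chains of the main fibrillar collagens, had -1.76, -1.84 and -1.50 with dexamethasone and -1.04, -0.75 and -0.63 with the combination. In the list of collagens and matrix genes, which shares members with the fibroblast list, 24 of 34 were below 0, against 45.4% of all genes. Its median was -0.46 (-0.86 with dexamethasone, -0.17 with the combination), and 4 (11.8%) shifted alike, against 34.9% of all genes. The mean of that list in the combination arrays, -0.17 to 0.62, overlapped the controls, at 0.13 to 0.43. The mean of the fibroblast list was 0.36 to 0.71 in controls, -1.23 to 0.34 with dexamethasone and -0.40 to 0.34 with the combination, and it differed by -0.59 within scan day 2 and -1.07 within the other days.

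Of 22 leukocyte markers 18 were below 0, with a median of -0.61 and 6 (27.3%) lower at an unadjusted p under 0.05, against 5.59% of all genes. The lowest were macrophage genes, CD163, C1QA, C1QB and CSF1R, the last with -1.68 in dexamethasone and -1.65 in the combination. Only 10 of the 22 were well above background on all 12 arrays. Dexamethasone replicate 1 had a leukocyte mean of 0.69, level with the highest control (controls 0.37 to 0.69), while the other dexamethasone arrays were at -0.37 or below. Markers of blood vessels did not follow: endothelial markers had a median of 0.30 and smooth muscle and pericyte markers 0.29. Of 15 endothelial markers 11 were above 0, as were 7457 of all 13668 genes. The part of cell makeup in the genes above was not tested.

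Slow fibre contractile genes had a median of 0.52, with 14 of 17 above 0, 9 (52.9%) higher at an unadjusted p under 0.05, against 6.54% of all genes, and 10 (58.8%) shifting alike, against 34.9%. MYOZ2, a protein of slow-fibre Z discs, had changes of 1.87 and 1.90, MYL6B, a slow myosin light chain, 2.60 and 2.42, and ANKRD2, a stretch-responsive protein, 1.62 and 2.42. None of them separated the groups completely, and MYH7, the slow myosin heavy chain, had 0.17 ± 0.15. The list mean differed by 1.36 within scan day 2 and by 0.14 within the other days. Treated arrays of the other days, at -0.42 and -0.31, lay below those of scan day 2, at 0.08 to 0.80. Control replicate 4, scanned on day 2, was at -0.84, among the other controls at -1.02 to 0.18. The part of scan day was not tested. Fast fibre contractile genes had a median of -0.17, which was 0.05 with the scan block.

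**Figure D3:**
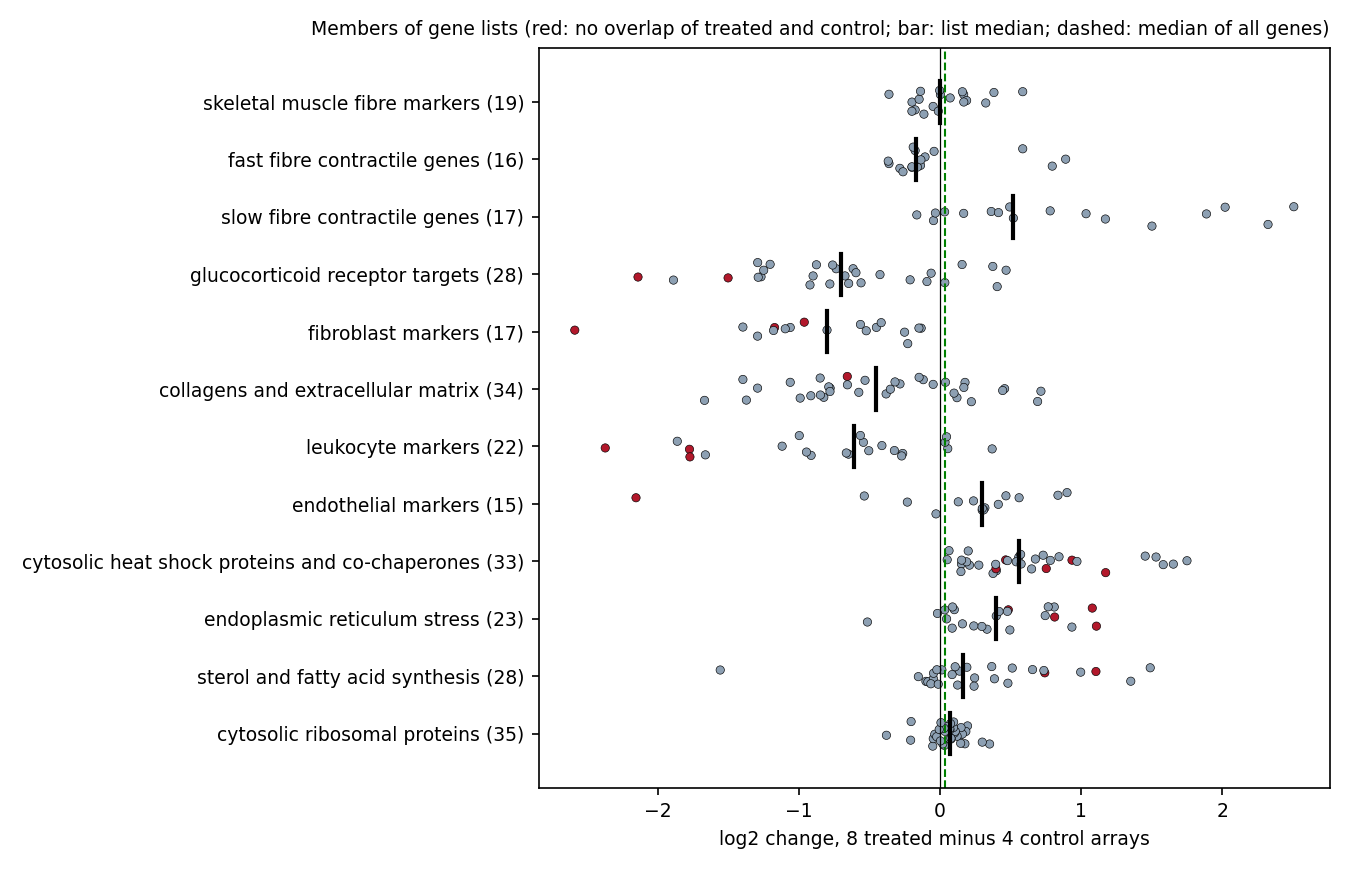
Pooled log2 change, 8 treated minus 4 control arrays, of each measured member of 12 gene lists, with the number measured in parentheses; red points are members whose treated and control arrays do not overlap, bars are list medians and the dashed line is the median of all genes, 0.03. All 33 cytosolic heat shock proteins lie above 0 and all 17 fibroblast markers below it.

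**Figure D4:**
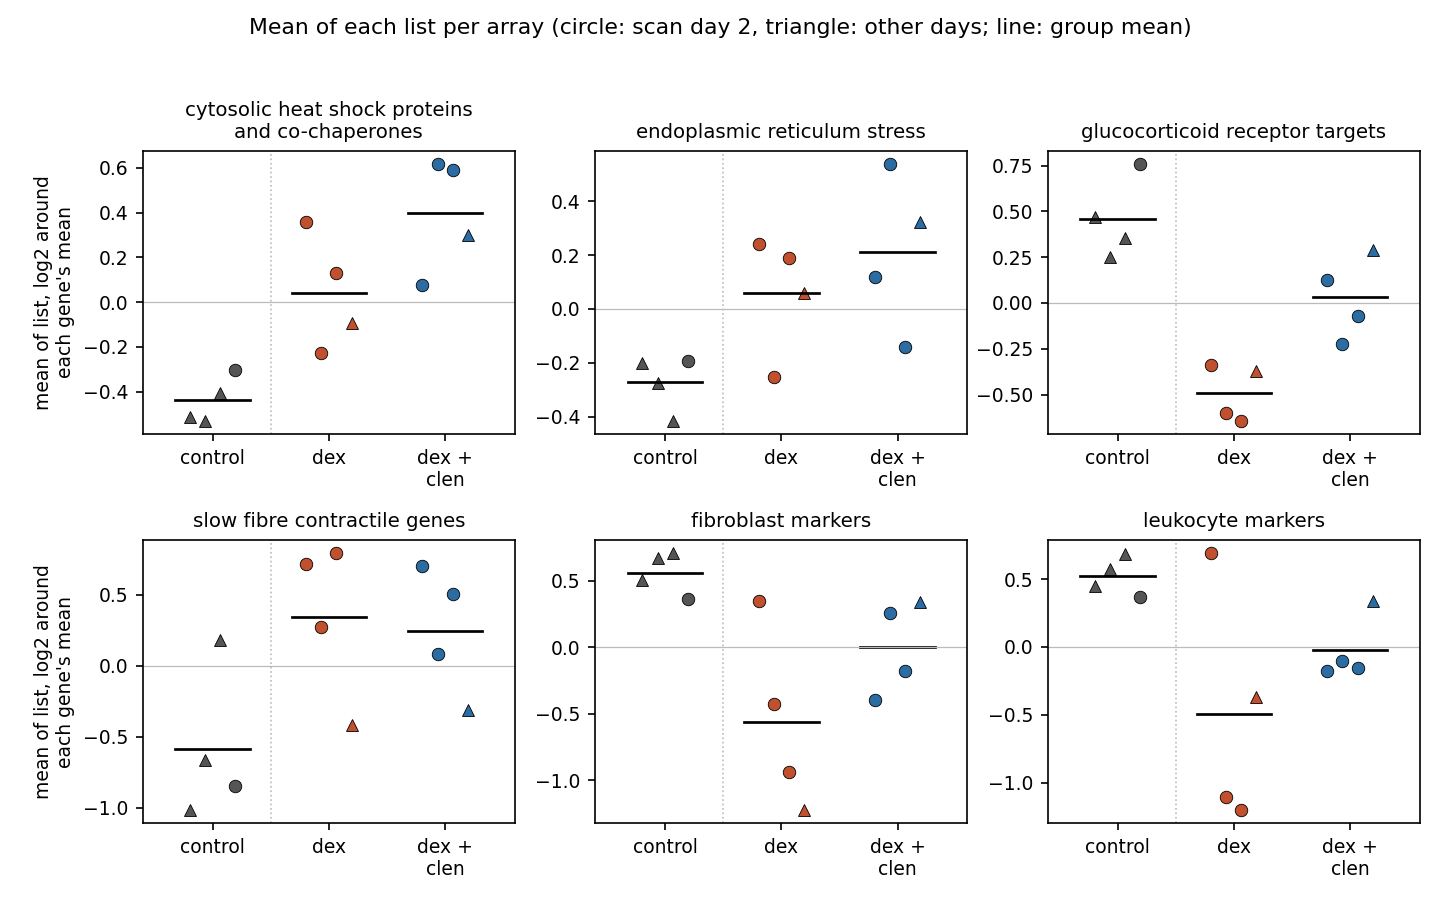
Mean of 6 gene lists in each array, on the log2 scale with each gene centred on its mean over the 12 arrays; circles are arrays of scan day 2, triangles those of the other days and lines the group means. In the heat shock panel every treated array is above the highest control at -0.30, while slow fibre genes of the treated arrays from the other days lie below 0, within the control range.

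The count of genes that passed depended on single arrays. With the treated arrays as 1 group, leaving out control replicate 1, control replicate 2 or combination replicate 2 left 0 genes past the threshold, with 1009, 1115 and 1439 at an unadjusted p under 0.05. Leaving out combination replicate 4 gave 45, which included the 4. The sizes moved less: over these 12 fits the change of LIPG lay between -2.89 and -2.58, that of SLC43A2 between -2.17 and -1.78 and that of B3GNT8 between -1.86 and -1.55. LIPG lost its call in 3 of the 12, SLC43A2 in 4 and B3GNT8 in 5. With the spread within 3 groups the count ran from 0 to 106, the highest without dexamethasone replicate 1, where the 106 included the 33. The part of that array's fibre gene levels in the count was not tested. LIPG passed in 10 of 12 such fits and OSR1 in 5.

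**Figure D5:**
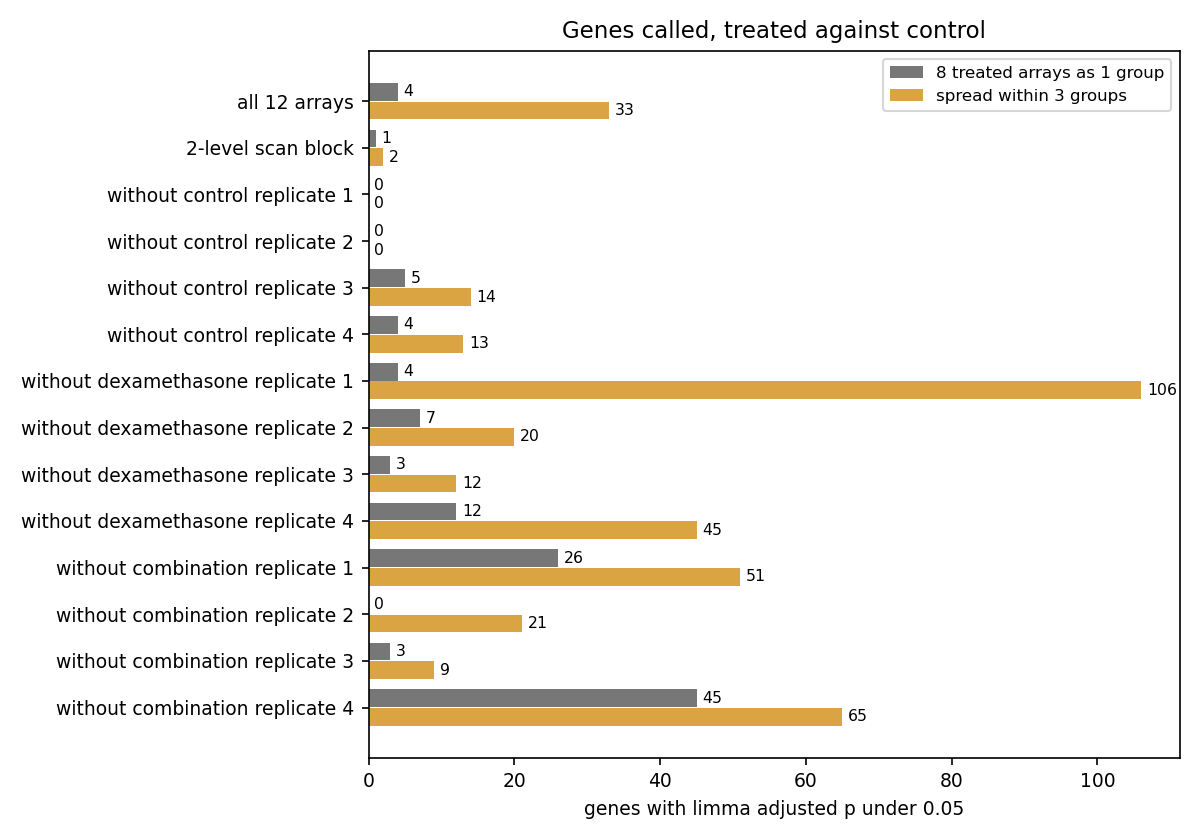
Number of genes with a limma adjusted p under 0.05 in the comparison of treated with control arrays, with the 8 treated arrays as 1 group (grey) or with the spread within the 3 labelled groups (yellow), for all 12 arrays, with a 2-level scan block, and without each array in turn. All 12 arrays give 4 and 33 genes, and leaving out control replicate 1 or 2 gives 0 in both.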

How the data were processed

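RNA from the biceps brachii of 12 bulls was hybridised to 1-colour Agilent arrays, per the labels' protocols, and the deposited scanner files hold the spot intensity that Feature Extraction 9.5.1.1 had background-subtracted, per the file headers. The authors' deposited value table, a linear intensity whose maximum of 689500 is shared by all arrays, served as an alternative. For the steps behind that table the sources used here give nothing.

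The main values were log2 processed signal minus the array's 75th percentile, averaged over a probe's spots, leaving out control and outlier spots. Of 21475 probes, 14703 were well above background on at least 4 of 12 arrays; the probe of highest mean stood for a gene. Names came from a RefSeq table (9993 probes by gene number, 3410 by accession, 383 by symbol, 3481 through a human match), and 4208 stayed under their array name. The array and the table named 9554 probes both, and 83.1% of those names were equal.

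limma 3.58.1 (R 4.3.3) compared 8 treated with 4 control arrays (lmFit and eBayes, two-sided, Benjamini-Hochberg over 13668 genes). Errors of a pooled change are limma's SE from that fit, and those of a single treatment's change come from the fit with 3 group means. Alternatives changed the normalization, the filter, the choice of probe, the batch terms, the array weights and the arrays included. Named genes were the 14 largest changes in each direction among genes that passed, had a symbol, shifted alike and did not overlap, the 5 of smallest p where a direction had fewer than 5, up to 3 passing members of each list, the 5 passing genes with the most unequal treatments and the preset genes, 1 of which is not reported here. Members and lists were chosen with earlier results of these data known. Slide and scan day came from the file headers. The label code and the header disagree on the slide of dexamethasone replicate 4, and the header was used. Data were simulated for the pooled test on 13668 genes, of which 200 were set to change. Of changes of 1 log2 unit 57.9% were recovered and of changes of 2 log2 units 90.8%, with a mean of 8.6 false calls. These figures depend on the number of genes set to change, which is not known for the real arrays, so they do not carry over to the 4 calls. The number of arrays limits the precision. No probe sequences were used here.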

Additional observations from a re-analysis of the deposited data

Results flagged for a closer look

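LEFTY2 in control replicate 1, at -6.07, lay below the other controls, the nearest of which was at -5.74; LEFTY2 was dim in the controls, and the gap was large for a group of 4 by Dixon's criterion. HSPA1A in control replicate 4, at 7.15, lay above the other controls, the nearest of which was at 6.17. Chance alone gives such a gap in about 5% of groups, and 54 groups were examined. For RASD1 the combination and dexamethasone differed in their change against control, by 1.89 (limma adjusted p = 0.0319).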

How the results depend on the processing

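With the treated arrays as 1 group, 4 genes passed, 4 of them lower, 0 higher and 4 alike. These 4 counts were 33, 29, 4 and 23 with 3 group means, 25, 23, 2 and 25 with normexp background correction, 10, 9, 1 and 10 among genes above background on all arrays, and 97, 61, 36 and 94 with array weights, where 62.9% were lower. They were 2, 2, 0 and 2 without a filter on dim probes or with slide as a random block, 1, 1, 0 and 1 with the 2-level scan block, and 0 in all with scan day as a block, where 901 genes had an unadjusted limma p under 0.05. With scan day as a block the treated change comes from day 2 alone, which held 6 treated arrays and 1 control. Leaving out 1 array gave 0 to 45 genes, 0 to 35 lower, 0 to 10 higher and 0 to 45 alike. The count for combination minus dexamethasone, 2, was 1 with normexp or among genes above background on all arrays, 0 with quantile normalization, no filter, the mean of a gene's probes, the 2-level scan block, scan day or slide, and 0 to 74 without 1 array. With the spread within 3 groups, and settings chosen after seeing the data, 33 became 2 with the scan block, 21 with the authors' table and 0 to 106 without 1 array. KLF15 changed sign with the 2-level scan block (0.12), NR3C1 with scan day (0.015), and FBXO32 with the 2-level block (0.32), scan day (0.14) and slide (0.017) and over -0.17 to 0.14 without 1 array. The cause was not tested. Genes named as dim are limited by signal over background. No paired analysis was possible because the labels give the animals no shared numbers; replicate numbers here follow the order of deposit.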

Other observations

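The lists described here held no gene past the threshold in the pooled limma fit. Of all 13668 genes tested, 7457 had a pooled change above 0. Genes of the respiratory chain and citrate cycle (44 measured) had a median pooled log2 change of 0.02, and 0 of them had an unadjusted p under 0.05. Ribosomal proteins (35 measured) had 0.07 and the proteasome (34 measured) 0.05, beside 0.03 over all genes. Immediate early genes, which respond quickly to hormones and handling, had 16 of 20 members above 0 and a median of 0.46, with 0.49 for dexamethasone and 0.23 for the combination. Their list mean differed by -0.57 within scan day 2 and by 1.03 within the other days; control replicate 4, at 0.52, stood above the other controls, at -0.57 to -0.32. Genes of antigen presentation and the interferon response had 15 of 17 above 0, with medians of 0.09 for dexamethasone and 0.46 for the combination. Embryonic and regenerating fibre genes had a median of 1.01 for dexamethasone and 0.39 for the combination, with 10 of 12 above 0 and 0 at an unadjusted p under 0.05. Dexamethasone replicate 1 had a list mean of 2.09, while the other dexamethasone arrays, at -0.72 to -0.06, lay within the control range of -0.75 to -0.03. Without that array the pooled median was 0.23, against 0.54 with it.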
